A study of Mus musculus with 2 samples.

Results

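Granzyme-high CD8 T cells were the CD8 T cells of MC38 tumours that devoted the largest share of their RNA to 5 granzymes, the serine proteases that killer lymphocytes store in granules and release into a target cell. They were chosen by a gate on single-cell counts. A cell had at least 2 UMIs (unique molecular identifiers, 1 per captured RNA molecule) of Cd8a and Cd8b1 together and at least 2 of Cd3d, Cd3e and Cd3g together. It had no Foxp3 UMI, at most 1 Trdc UMI and under 0.3% of its UMIs from the C1q genes of macrophages. Gzmb, Gzmc, Gzmd, Gzme and Gzmf together made up at least 0.2% of its UMIs. The gate found 107 such cells among 22639 kept cells of both libraries. The levels of these 5 granzymes, of Cd8a and Cd8b1 and of the Cd3 genes were used to choose the cells and are given below as a description only.

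Single-cell 3′ RNA sequencing (10x Genomics) had been run on living CD45+ leukocytes from tumours of MC38, a colon carcinoma line of the mouse. SPP1fl/fl-Lyz2-icre mice carried floxed Spp1 alleles together with Lyz2-icre, a Cre recombinase expressed from the Lyz2 gene in macrophages and other myeloid cells, and SPP1fl/fl mice carried the floxed alleles alone. The study compared the genotypes to ask what macrophage Spp1 (osteopontin, a secreted adhesive cytokine) does in the tumour, and Cre driven by Lyz2 is not aimed at T cells. The age of the mice, the time of tumour growth and the number of mice per library were not given in the sources used here. Each genotype had 1 library, so no difference between genotypes had a replicate and none was tested. Each library held both female and male cells, told apart by Xist and 4 Y-linked genes, and therefore came from more than 1 mouse. Of the granzyme-high cells, 72 came from the SPP1fl/fl-Lyz2-icre library (42 female, 17 male, 13 not assigned) and 35 from the SPP1fl/fl library (17 female, 14 male, 4 not assigned). All intervals below are 95% and cover counting error only. They leave out the spread between mice and are too narrow where a few cells hold most UMIs of a gene.

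CD8 T cells kill by making contact with a target, releasing perforin to open its membrane and delivering granzymes through the opening. Granzyme B is the granzyme best known for starting cell death in the target. Granzymes C to G lie beside it in 1 gene cluster in the mouse and are known from strongly stimulated killer T cells and from natural killer (NK) cells, and less is known of what they cleave.

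The granzyme genes of the gate stand in a row on mouse chromosome 14. Gzmb, Gzmc, Gzmd, Gzme, Gzmf, Gzmg and Gzmn, 7 genes on the minus strand, lie between 56117626 and 56262260 in the GENCODE vM21 annotation of mm10, a stretch of 145 kb. The promoters of Gzmb, Gzmc, Gzmd and Gzmf are shown because these 4 genes carried most granzyme RNA of the cells and did not all behave alike. The windows run from 250 bases before to 50 after the start of each gene in RefSeq (GRCm38.p6), all on the minus strand, 5′ to 3′. They are chr14:56262285-56262584 for Gzmb, chr14:56234608-56234907 for Gzmc, chr14:56132544-56132843 for Gzmd and chr14:56211358-56211657 for Gzmf. Capitals mark exact matches to TGTGGT or its complement ACCACA (bound by RUNX factors), to TGANTCA (AP-1) and to TGACGTCA (the cAMP response element, CRE).
Gzmb: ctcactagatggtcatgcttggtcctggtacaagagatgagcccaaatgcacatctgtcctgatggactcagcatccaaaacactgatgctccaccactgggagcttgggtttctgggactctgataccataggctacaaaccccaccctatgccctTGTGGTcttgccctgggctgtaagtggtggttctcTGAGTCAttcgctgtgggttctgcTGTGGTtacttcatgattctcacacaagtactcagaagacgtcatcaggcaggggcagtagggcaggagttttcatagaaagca
Gzmc: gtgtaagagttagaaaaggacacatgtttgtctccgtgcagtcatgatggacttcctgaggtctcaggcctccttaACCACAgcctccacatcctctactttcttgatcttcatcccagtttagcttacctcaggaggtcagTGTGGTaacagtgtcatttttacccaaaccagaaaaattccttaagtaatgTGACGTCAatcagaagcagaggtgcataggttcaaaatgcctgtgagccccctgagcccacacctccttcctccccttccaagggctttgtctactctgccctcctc
Gzmd: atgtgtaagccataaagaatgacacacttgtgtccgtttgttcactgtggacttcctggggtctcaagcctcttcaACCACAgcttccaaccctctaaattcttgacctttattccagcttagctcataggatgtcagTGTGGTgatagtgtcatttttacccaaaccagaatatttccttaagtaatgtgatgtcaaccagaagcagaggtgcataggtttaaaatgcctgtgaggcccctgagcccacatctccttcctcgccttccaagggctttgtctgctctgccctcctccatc
Gzmf: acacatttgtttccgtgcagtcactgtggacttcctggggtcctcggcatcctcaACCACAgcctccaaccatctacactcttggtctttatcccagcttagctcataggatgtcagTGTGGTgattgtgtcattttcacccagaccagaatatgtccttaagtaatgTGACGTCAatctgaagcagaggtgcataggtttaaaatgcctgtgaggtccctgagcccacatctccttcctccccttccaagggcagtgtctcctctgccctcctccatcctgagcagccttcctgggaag
The promoters of Gzmc, Gzmd, Gzme and Gzmf were 81.3 to 93.7% identical to each other, and that of Gzmb was 55.3 to 59.3% identical to them. Each of Gzmb to Gzmg had 2 copies of the RUNX letters on either strand, at −93 and −34 from the gene start in Gzmb, −174 and −108 in Gzmc, −174 and −112 in Gzmd, and −195 and −133 in Gzmf. These letters stood in 16.8% of the 32851 RefSeq promoter windows of the same length. Of the 7 genes, the AP-1 letters were in Gzmb only, at −58 (7.81% of windows), and the CRE letters in Gzmc at −57, Gzmf at −82 and Gzmg at −77 (1.79% of windows). The T-box letters AGGTGTGA were in none of the 7 (1.28% of windows). No overlap was found between these motifs in the windows shown. The matches describe letters and not binding.

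Both libraries held the granzyme-high cells. They were 22.6% (exact binomial interval 18.1 to 27.6) of 319 gated CD8 T cells in the SPP1fl/fl-Lyz2-icre library and 13.2% (9.37 to 17.9) of 265 in the SPP1fl/fl library, a ratio of 1.71 (1.13 to 2.64). Of all kept cells they were 0.517% (0.405 to 0.651) of 13915 and 0.401% (0.280 to 0.558) of 8724, a ratio of 1.29 (0.850 to 1.99). Granzyme-low CD8 T cells, which met the same gate with granzymes under 0.2%, were 1.78% of kept SPP1fl/fl-Lyz2-icre cells and 2.64% of kept SPP1fl/fl cells, a ratio of 0.673 (0.560 to 0.809). The share among CD8 T cells thus has a denominator that differed as well, and the share among kept cells differed by less than its counting error.

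By sex, the ratio was further from 1 in female than in male cells. Among female CD8 T cells they were 25.5% (42 of 165) in the SPP1fl/fl-Lyz2-icre library and 10.6% (17 of 161) in the SPP1fl/fl library, a ratio of 2.41 (1.34 to 4.52). Among male CD8 T cells they were 23.0% (17 of 74) and 21.9% (14 of 64), a ratio of 1.05 (0.487 to 2.30). The intervals of the female and male ratios overlap, and the difference between the sexes was not tested. Female and male cells came from different mice, so sex and mouse cannot be told apart. The gate was also read on cells thinned to 2000 UMIs, without cells under 2000 UMIs and with at least 1 UMI each of the Cd8 and Cd3 sums. There 73 of 274 SPP1fl/fl-Lyz2-icre and 42 of 251 SPP1fl/fl CD8 T cells passed the granzyme threshold, a ratio of 1.59 (1.08 to 2.39). This looser gate chose a different set of cells.

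The cells carried the T cell markers, with low levels of NK and macrophage markers. The T cell receptor chain Trac stood at 744 CPM (UMIs of the gene per 1000000 UMIs summed over the cells) in SPP1fl/fl-Lyz2-icre granzyme-high cells and at 570 CPM in SPP1fl/fl ones. Cd8a, which with Cd8b1 binds MHC class I, stood at 988 and 813 CPM, and the receptor subunit Cd3e at 771 and 625 CPM. Cd4 had 2 UMIs in SPP1fl/fl-Lyz2-icre cells and 0 in SPP1fl/fl cells, and the natural killer receptor gene Ncr1 had 2 and 5. The 5 NK markers summed to 420 and 928 CPM, beside 725 and 689 CPM in granzyme-low cells and 5551 and 4756 CPM in NK cells, and had a UMI in 43 of 72 and 31 of 35 cells. Tyrobp and Fcer1g of this list are also macrophage genes. The 7 macrophage markers summed to 801 and 1314 CPM, beside 2141 and 2249 CPM in granzyme-low cells and 27282 and 35529 CPM in macrophages, and had a UMI in 69 of 72 and 35 of 35 cells. An Ncr1 or Klrb1c UMI was in 8 (11.1%) and 5 (14.3%) of them, beside 2.43% and 7.83% of granzyme-low cells. The part of NK and macrophage RNA in the results below was not tested. No library shared a granzyme-high barcode with the other, although 43 barcodes stood in both libraries.

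Depth and mitochondrial RNA differed between the libraries. The median was 3910 UMIs (1683 to 19528) in the 72 SPP1fl/fl-Lyz2-icre cells and 4983 UMIs (2528 to 19110) in the 35 SPP1fl/fl cells. Mitochondrial genes took a median of 0.837% and 1.87% of UMIs, as in all kept cells (0.796% and 1.64%). Summed, the granzyme-high cells gave 330831 and 217708 UMIs, of 98275787 and 88529822 in the whole libraries.

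Granzyme shares were spread widely among the cells that passed. The median share of the 5 granzymes was 0.635% in SPP1fl/fl-Lyz2-icre cells (0.207 to 4.21%) and 0.512% in SPP1fl/fl cells (0.204 to 3.95%). In UMIs the median was 24.5 (5 to 348) and 26 (6 to 600). At the threshold, the lowest shares inside were 0.207, 0.211 and 0.219% in SPP1fl/fl-Lyz2-icre cells and 0.204, 0.217 and 0.219% in SPP1fl/fl cells. The highest outside were 0.192, 0.193 and 0.197%, and 0.190, 0.195 and 0.195%. Between 0.15 and 0.25% there were 22 and 21 CD8 T cells, so the class is the upper end of a continuous range and not a separate cluster. A few cells dominated: 1 cell held 10.4% of all granzyme UMIs of the SPP1fl/fl-Lyz2-icre cells and 28.6% of those of the SPP1fl/fl cells, and the top 5 held 36.4% and 55.5%.

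**Figure D1:**
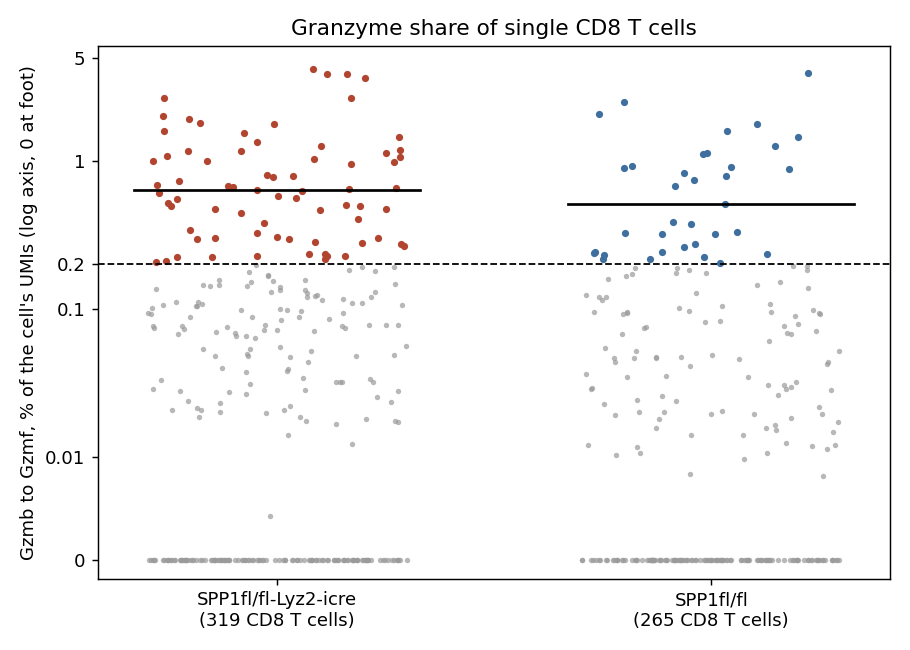
Share of UMIs from Gzmb to Gzmf in each CD8 T cell (percent, log axis, cells at 0 drawn at the foot), SPP1fl/fl-Lyz2-icre left and SPP1fl/fl right. The dashed line is the 0.2% threshold and the black lines are the medians of the granzyme-high cells, 0.635% and 0.512%; the points run through the threshold without a gap.

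Granzyme B was the granzyme that nearly every cell shared, and granzyme F the most abundant one. Gzmb, the apoptosis-inducing protease, stood at 2681 CPM (2508 to 2864) in SPP1fl/fl-Lyz2-icre cells and 2710 CPM (2496 to 2938) in SPP1fl/fl cells, and was found in 69 of 72 and 35 of 35 cells. Gzmf stood at 3594 and 3776 CPM and was found in 46 and 21 cells. Granzyme-low cells had 277 and 204 CPM of Gzmb but only 22.2 and 24.0 CPM of Gzmf.

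The remaining granzymes of the gate were found in about as many cells as each other. Gzmc stood at 1678 CPM in 36 SPP1fl/fl-Lyz2-icre cells and at 1249 CPM in 17 SPP1fl/fl cells. Gzmd stood at 1146 CPM in 34 cells and at 1084 CPM in 13 cells. Gzme stood at 979 CPM in 34 cells and at 804 CPM in 17 cells. The SPP1fl/fl levels leaned on 1 male cell, which held 53.8% of the Gzmd UMIs and 44.0% of the Gzme UMIs. The RNA counted comes from the 3′ ends of these related genes, whose last 400 bases are 57 to 91.25% identical with identical runs of 8 to 71 bases, so some reads may have been shared between copies or dropped.

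Gzmd and Gzme were found mostly in the same cells. Of 34 SPP1fl/fl-Lyz2-icre cells with a Gzmd UMI, 31 also had a Gzme UMI, as had all 13 such SPP1fl/fl cells. Gzmc and Gzmf met in 27 cells, of 36 with Gzmc and 46 with Gzmf, in the SPP1fl/fl-Lyz2-icre library, and in 11 cells, of 17 and 21, in the SPP1fl/fl library. All 5 granzymes were found in 19 and 7 cells, and Gzmb without the others in 14 and 8.

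Granzymes outside the gate were rare in these cells. Gzma, a tryptase-like granzyme typical of NK cells, had UMIs in 4 SPP1fl/fl-Lyz2-icre cells, 1 of which held 87.5% of them, and in 3 SPP1fl/fl cells. Gzma stood at 218 and 110 CPM, against 2269 and 1237 CPM in NK cells. Gzmg was found in 6 and 3 cells, at 169 and 101 CPM, and had no UMI in granzyme-low cells. Gzmk, known from less differentiated effector and memory CD8 T cells, stood at 18.1 and 4.59 CPM. Gzmn had no UMI.

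The make-up of the granzyme RNA differed from that of NK cells in the same tumours. Of the UMIs of the 5 granzymes, Gzmf made up 35.7% in SPP1fl/fl-Lyz2-icre granzyme-high cells and 39.2% in SPP1fl/fl ones, against 7.41% and 8.74% in NK cells. Gzmc made up 16.6% and 13.0%, against 67.6% and 70.9% in NK cells. Gzmb made up 26.6% and 28.2%, against 12.6% and 8.98%. In both libraries Gzmf came first in the T cells and Gzmc first in the NK cells. At 2000 UMIs per cell, Gzmf had a UMI in 60.3% and 60.0% of granzyme-high cells, 8.3% and 8.2% of NK cells, 2.3% and 3.1% of granzyme-low cells and 0.1% of macrophages in either library.

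**Figure D2:**
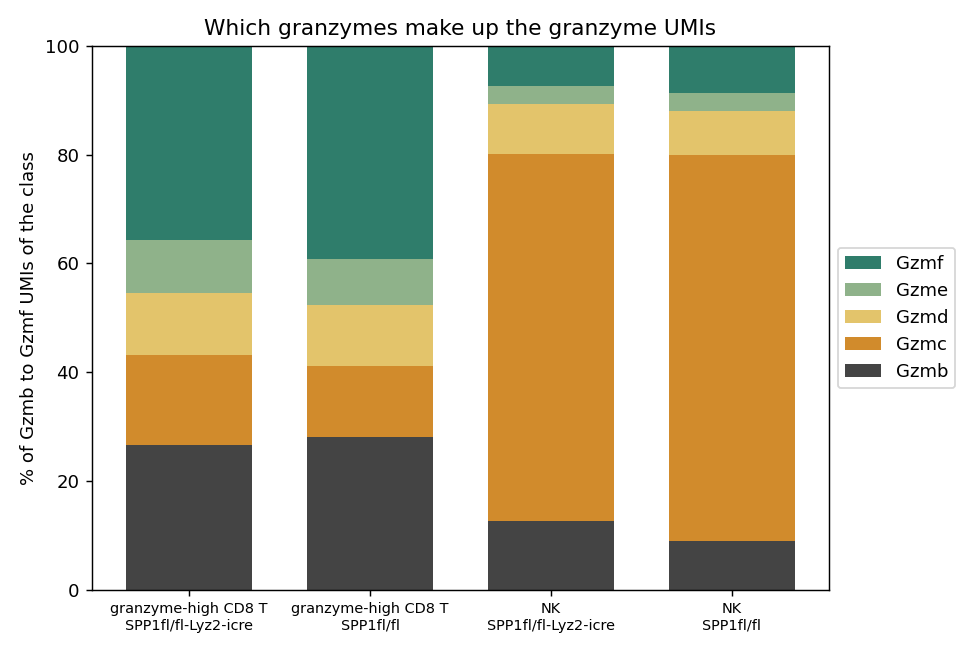
Make-up of the UMIs of Gzmb to Gzmf (percent of their sum, stacked bars) in granzyme-high CD8 T cells and in NK cells, SPP1fl/fl-Lyz2-icre left of SPP1fl/fl in each pair. Gzmf makes up 35.7 and 39.2% in the T cells, and Gzmc 67.6 and 70.9% in the NK cells.

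Set against granzyme-low CD8 T cells of the same library, the granzyme-high cells had more perforin, serpins that protect from granzymes, and Lag3 and Havcr2, and less Tox, Xcl1 and cell division RNA. A gene was called higher or lower where its CPM differed at least 1.5-fold with an interval clear of 1, with at least 50 CPM, 30 UMIs and UMIs in at least 10% of cells in the higher class. The calls describe cells picked by their granzymes and have no test. In both libraries 22 of 1944 genes were called higher (1.13%) and 20 lower (1.03%). In single libraries 99 (3.90%) were called higher in SPP1fl/fl-Lyz2-icre and 76 (3.25%) in SPP1fl/fl cells. The 22 shared genes were 22.2% and 28.9% of these lists, and the 20 shared lower genes were 14.6% of the 137 (5.39%) and 11.9% of the 168 (7.17%) called lower in each. Of the genes called higher in SPP1fl/fl-Lyz2-icre cells, 68 were tested in SPP1fl/fl cells, and 43 of them had the same sign there. The other way round, 57 of 70 had the same sign. For genes called lower, the counts were 86 of 97 and 92 of 138. Genes called in both libraries are part of these counts.

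Genes of the killing machinery were among the higher genes. Prf1 (perforin) stood at 916 CPM in granzyme-high and 236 CPM in granzyme-low cells of the SPP1fl/fl-Lyz2-icre library, and at 974 and 305 CPM in the SPP1fl/fl library. The ratios were 3.88 (3.28 to 4.60) and 3.19 (2.70 to 3.75). At 2000 UMIs per cell, Prf1 had a UMI in 67.6% of granzyme-high and 36.3% of granzyme-low SPP1fl/fl-Lyz2-icre cells, and in 74.3% and 37.6% of SPP1fl/fl cells. In macrophages the share was 0.2% and 0.1%. Serpinb9b, a relative of the granzyme B inhibitor Serpinb9, stood at 103 against 26.6 CPM and at 193 against 38.8 CPM. Serpinb9 itself stood at 535 against 297 CPM and at 528 against 336 CPM, and Serpinb6b, another intracellular serpin, at 414 against 192 CPM and at 473 against 218 CPM. Of the 9 granule genes tested outside the gate, 4 were called higher in SPP1fl/fl-Lyz2-icre and 5 in SPP1fl/fl cells and none lower, with median log2 differences of 0.56 and 0.64 beside −0.04 over all genes in either library. Medians of lists are taken over their members at 20 CPM or more, whether or not they could be called. Serpinb9b and Serpinb6b were not higher in every subset by sex: in female SPP1fl/fl cells the log2 difference of Serpinb9b was −0.52, and in male SPP1fl/fl-Lyz2-icre cells that of Serpinb6b was −0.18.

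Receptors and secreted factors followed. Ifitm1, an interferon-inducible membrane protein, was 3.17-fold (2.71 to 3.71) higher in granzyme-high SPP1fl/fl-Lyz2-icre cells and 5.82-fold (4.83 to 7.02) higher in SPP1fl/fl cells. Icos, a costimulatory receptor, stood at 426 against 245 CPM and at 551 against 185 CPM. Lag3, an inhibitory receptor for MHC class II, stood at 160 against 91.3 CPM and at 184 against 95.4 CPM. Havcr2 (Tim-3, another inhibitory receptor) stood at 178 against 85.1 CPM and at 156 against 89.2 CPM. Csf1, the growth factor of macrophages, stood at 215 against 121 CPM and at 294 against 118 CPM. Myo10, an unconventional myosin, had log2 differences of 1.99 and 1.86, the highest of the 22 genes by the smaller difference of the libraries. In male SPP1fl/fl-Lyz2-icre cells the log2 difference of Lag3 was −0.20. Of 9 exhaustion genes tested, 2 were called higher and 1 lower in SPP1fl/fl-Lyz2-icre cells, and of 8 in SPP1fl/fl cells 3 and 1, with median log2 differences of 0.25 and 0.03; the gene called lower was Tox in both. Of the costimulatory receptors, 4 of 9 and 2 of 7 were called higher and none lower, and of 13 and 14 genes of T cell receptor signalling none was called.

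Spp1 itself was among the 22 genes called higher, but is left out of the named genes by their rule because the study deleted it. It stood at 614 CPM in granzyme-high against 182 CPM in granzyme-low SPP1fl/fl-Lyz2-icre cells, and at 818 against 249 CPM in SPP1fl/fl cells. UMIs of Spp1 were in 27 of 72 and 16 of 35 granzyme-high cells. The level was not particular to these cells: against NK cells the log2 differences of Spp1 were 0.004 and −0.39. Thinned to 2000 UMIs, 32.6% of SPP1fl/fl-Lyz2-icre and 33.8% of SPP1fl/fl NK cells had a Spp1 UMI. In the SPP1fl/fl-Lyz2-icre library macrophages had 3.48 CPM of Spp1, and a UMI in 0.3% of macrophages thinned to 2000 UMIs, beside 29.4% of granzyme-high cells. In the SPP1fl/fl library macrophages had 632 CPM and 37.7% of them had a UMI, beside 31.4% of granzyme-high cells, so macrophage RNA in T cell droplets could add to the SPP1fl/fl value, which was not tested. The floxed exons were not given in the sources used here, and a 3′ count may not read their loss. In male SPP1fl/fl-Lyz2-icre cells the log2 difference of Spp1 was −1.21, so the higher level there came from female and unassigned cells.

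The lower genes included Tox, Xcl1, Ccr7 and genes of dividing cells. Tox, a nuclear factor of exhausted T cells, stood at 39.3 against 105 CPM and at 55.1 against 201 CPM. Xcl1, a chemokine that attracts cross-presenting dendritic cells, stood at 230 against 622 CPM and at 335 against 690 CPM. Ccr7, the lymph node homing receptor, stood at 51.4 against 110 CPM and at 55.1 against 192 CPM, but only 3 and 2 granzyme-high cells had a UMI of it. The cyclin Ccnb2 stood at 27.2 against 80.7 CPM and at 13.8 against 52.9 CPM, and Mki67, a marker of cycling cells, at 151 against 232 CPM and at 129 against 273 CPM. Of the cell cycle genes tested, 8 of 18 were called lower in SPP1fl/fl-Lyz2-icre and 10 of 19 in SPP1fl/fl cells and none higher, with medians of −0.56 and −0.93. Of the stem-like and memory genes, 1 of 4 tested was called lower and none higher in SPP1fl/fl-Lyz2-icre cells, and 1 of 3 lower and 1 higher in SPP1fl/fl cells, with medians of −0.23 and 0.42. A UMI of Mki67 or Top2a was in 40.3% (28.9 to 52.5) of granzyme-high and 41.3% of granzyme-low SPP1fl/fl-Lyz2-icre cells, and in 31.4% (16.9 to 49.3) and 48.3% of SPP1fl/fl cells. The share of cycling cells thus differed by less than its counting error within the SPP1fl/fl-Lyz2-icre library. All 12 named lower genes were lower in female and in male cells of both libraries, as were 9 of the 12 named higher genes in their direction, a count without Spp1, which was lower in 1 of these subsets.

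**Figure D3:**
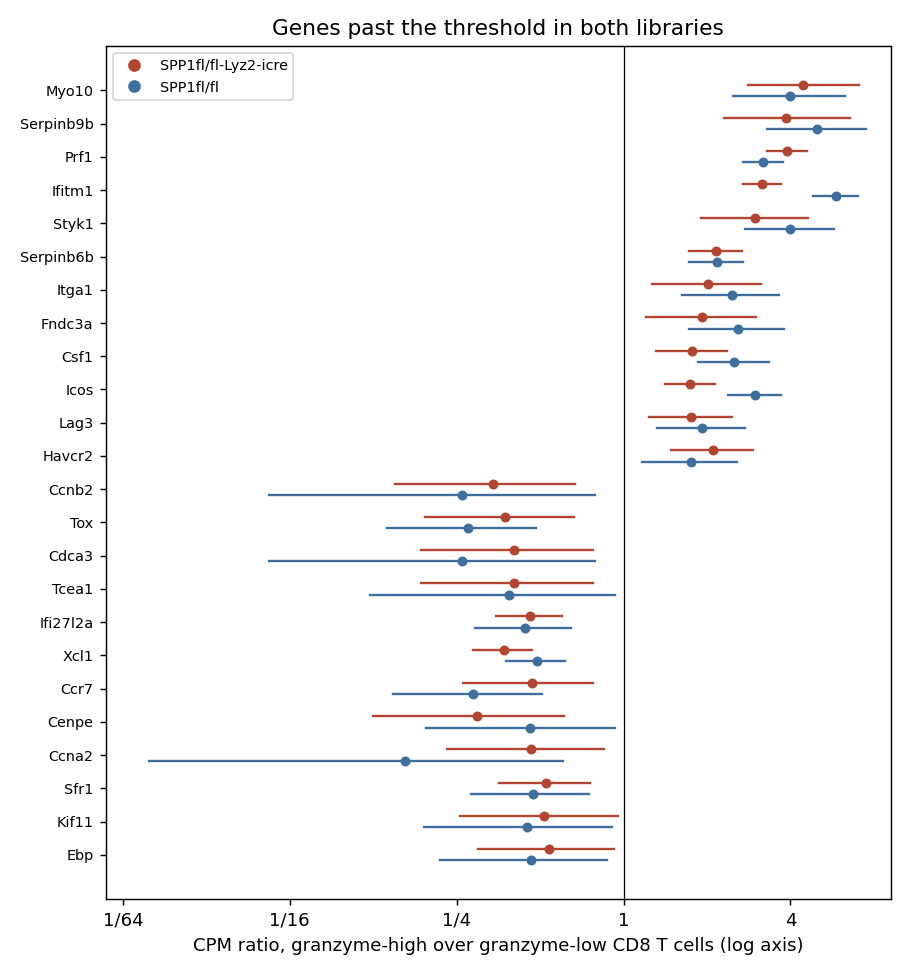
CPM ratio on a log axis, granzyme-high over granzyme-low CD8 T cells, for the 24 named genes in each library, with 95% counting intervals. Prf1 (ratios of 3.88 and 3.19), Myo10 and Ifitm1 stand among the highest, and Ccnb2 (0.34 and 0.26) and Tox (0.37 and 0.27) among the lowest.

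Against NK cells, the other large source of granzymes in the sort, 95 of 1959 genes were higher in both libraries (4.85%) and 82 lower (4.19%). The NK gate used Ncr1, Klrb1c and at most 1 UMI each of the Cd3 and Cd8 sums, so the receptor genes that differ by that gate are no result. Among the rest, Tnfrsf4 (OX40, a costimulatory receptor) stood at 251 CPM in SPP1fl/fl-Lyz2-icre granzyme-high and 9.34 CPM in NK cells, and at 179 and 5.22 CPM in SPP1fl/fl cells. Pdcd1 (PD-1, an inhibitory receptor) stood at 257 against 34.6 CPM and at 303 against 42.9 CPM. Cxcr6, a chemokine receptor of tissue T cells, stood at 550 against 76.6 CPM and at 372 against 54.5 CPM, and Ifng (interferon gamma) at 795 against 160 CPM and at 501 against 118 CPM. Lower were Xcl1, with log2 differences of −2.93 and −2.41, Gzma and the T-box factor Eomes, with 36.3 against 110 CPM and 36.7 against 125 CPM. Prf1 was 0.26 and 0.33 higher on the log2 scale and was not called.

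Within the granzyme-high cells, those with Gzmc to Gzmf differed from those that passed mainly on Gzmb. Cells with at least 0.1% of UMIs from Gzmc, Gzmd, Gzme and Gzmf were 51 of 72 in SPP1fl/fl-Lyz2-icre (70.8%, 58.9 to 81.0) and 23 of 35 in SPP1fl/fl (65.7%, 47.8 to 80.9). Set against the other granzyme-high cells, 8 of 457 genes were higher in both libraries (1.75%) and 6 lower (1.31%). Serpinb9b had 34 UMIs in the Gzmc-to-f-positive and 0 in the other SPP1fl/fl-Lyz2-icre cells, and 42 and 0 in SPP1fl/fl cells. Irf8, a transcription factor, stood at 749 against 445 CPM and at 1175 against 589 CPM, and Stat3, which relays cytokine signals, at 427 against 127 CPM and at 646 against 403 CPM. Spp1 stood at 842 against 42.4 CPM and at 927 against 558 CPM. Ccl5, a chemokine kept in T cell granules, ran the other way, at 575 against 3155 CPM and at 914 against 5131 CPM. Ccl4, an inflammatory chemokine, stood at 1413 against 2605 CPM and at 359 against 1070 CPM, and Ly6c2, a marker of memory and interferon-exposed T cells, at 305 against 667 CPM and at 189 against 620 CPM. The groups are small, and single cells weigh heavily in them.

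**Figure D4:**
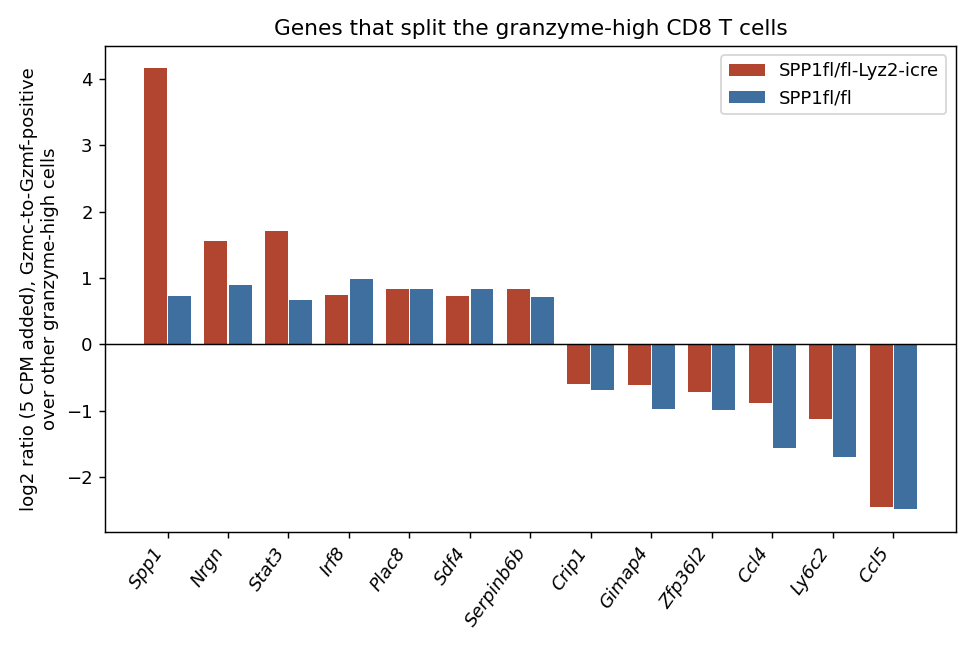
Log2 ratio of CPM, Gzmc-to-f-positive over other granzyme-high cells, for the genes called in both libraries, SPP1fl/fl-Lyz2-icre and SPP1fl/fl bars side by side. Serpinb9b is left out because the other cells had 0 UMIs; Ccl5 is the lowest at −2.45 and −2.48.

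Other readouts changed along the range of granzyme shares in 1 library and less plainly in the other. Over 4 bins of granzyme share (0.2 to 0.5%, 0.5 to 1%, 1 to 2%, and 2% or more), SPP1fl/fl-Lyz2-icre cells numbered 29, 21, 15 and 7 and SPP1fl/fl cells 17, 9, 6 and 3. Prf1 stood at 498, 887, 1003 and 2397 CPM in the SPP1fl/fl-Lyz2-icre bins and at 910, 995, 646 and 1549 CPM in the SPP1fl/fl bins. Ifng stood at 468, 710, 701 and 2484 CPM, and at 387, 551, 355 and 968 CPM. Both genes were highest in the top bin of either library, which held under 20 cells in each. Spp1 increased over the SPP1fl/fl-Lyz2-icre bins, at 149, 570, 1088 and 1386 CPM, and decreased over the SPP1fl/fl bins, at 1245, 811, 97.4 and 116 CPM. The bins with under 20 cells are the upper 2 in the SPP1fl/fl-Lyz2-icre library and all 4 in the SPP1fl/fl library.

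Between the genotypes, the granzyme-high cells differed in 4 of 5 chemokines and 5 of 10 cell cycle genes tested, while perforin and 8 of 9 granule genes tested were not called. Of 1562 genes tested, 127 were called higher in SPP1fl/fl-Lyz2-icre cells (8.13%) and 96 lower (6.15%), with a median log2 ratio of −0.03 over all genes. Without unnamed gene models, ribosomal, mitochondrial and receptor-segment genes, 124 and 83 were left, of which 115 and 69 had the same sign in female and in male cells. The cell that held the most UMIs of a gene was also left out of the higher library. All 24 named genes then still met the fold and interval limits of a call. The limit of 30 UMIs was not applied again in this setting. Genes near that limit, such as Azi2 and Map3k1 with 30 UMIs in the higher library, fell below it. Over 16 settings, single sexes left out, 18 of the 24 lost their call in 2 to 6 of them. The 16 include the setting without the top cell, where a loss by the UMI limit is not counted. Elk3, Mcm2, Azi2 and Map3k1 lost their call in 6, and Ccl1, Ccl3, Ccl4, Klrh1, Ifitm2 and H2-Q6 kept theirs in all 16.

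The chemokines Ccl3, Ccl4 and Ccl1, which attract other leukocytes, were higher. Ccl3 stood at 589 CPM in SPP1fl/fl-Lyz2-icre and 106 CPM in SPP1fl/fl granzyme-high cells, a ratio of 5.58 (3.61 to 9.01), with log2 ratios of 2.02 in female and 1.94 in male cells. Ccl4 stood at 1753 and 570 CPM, a ratio of 3.08 (2.53 to 3.77), with log2 ratios of 0.58 in female and 2.34 in male cells. The share of granzyme-high cells with a Ccl4 UMI at 2000 UMIs hardly differed, at 63.2% in SPP1fl/fl-Lyz2-icre and 60.0% in SPP1fl/fl cells. The log2 ratios of Ccl3 and Ccl4 were 0.67 and 0.28 in granzyme-low cells, −1.19 and −0.60 in NK cells and −0.96 and −0.99 in macrophages, the other large source of both. At 2000 UMIs, Ccl3 had a UMI in 26.5% of SPP1fl/fl-Lyz2-icre and 14.3% of SPP1fl/fl granzyme-high cells, beside 18.8% and 30.9% of macrophages, so the T cell share is above that of macrophages in the SPP1fl/fl-Lyz2-icre library by less than its interval (16.5 to 38.6) and below it in the SPP1fl/fl library. Ccl1, the ligand of Ccr8, stood at 193 and 23.0 CPM, a ratio of 8.42 (3.43 to 26.8), but 1 cell held 51.6% of its UMIs, and without that cell the log2 ratio was 1.84. Female SPP1fl/fl cells had 0 UMIs of Ccl1, and the male log2 ratio was 0.67. Ccl5 went the other way, at 1312 and 2163 CPM. Of the 5 chemokine genes tested, 3 were called higher and 1 lower, with a median log2 ratio of 1.61. In granzyme-low cells 2 and 1 were called, with a median of 0.28, beside 54 higher and 172 lower of 3227 genes tested there.

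Several genes of DNA replication were among the higher genes. Mcm6, Mcm4 and Mcm2, subunits of the helicase that opens replication origins, stood at 184, 118 and 93.7 CPM in SPP1fl/fl-Lyz2-icre and at 55.1, 36.7 and 27.6 CPM in SPP1fl/fl cells. Cks1b, a subunit of cyclin-dependent kinases, stood at 148 and 55.1 CPM. Of 10 cell cycle genes tested, 5 were called higher and none lower, with a median log2 ratio of 0.78. The share of cells with a Mki67 or Top2a UMI at full depth, 40.3% and 31.4%, differed by less than its counting error. In granzyme-low cells 3 of 19 cell cycle genes were called higher between the genotypes and none lower, with a median of 0.25. Over all genes tested in granzyme-low cells, 54 of 3227 were called higher and 172 lower. The log2 ratios of Mcm6, Mcm4 and Mcm2 in granzyme-low cells were −0.35, 0.17 and 0.35. With the cells that had a Mki67 or Top2a UMI left out, 70 genes were called higher and 38 lower.

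Some lectin-like receptors and interferon-induced genes were among the higher genes, and other genes of both kinds ran the other way. Klrh1, a killer lectin-like receptor outside the list summarized here, stood at 209 and 50.5 CPM, a ratio of 4.13 (2.17 to 8.65). Read at full depth, 20.8% of SPP1fl/fl-Lyz2-icre and 11.4% of SPP1fl/fl cells had a UMI of Klrh1. Klrd1 (CD94) stood at 1626 and 795 CPM, a ratio of 2.05 (1.72 to 2.44), with log2 ratios of 1.04 in female and 0.82 in male cells. Klrc1 (NKG2A, its partner) stood at 417 and 234 CPM, but the male log2 ratio was −0.07. Of 6 killer lectin genes tested on the list, 2 were called higher and none lower, beside 8.13% and 6.15% of all genes tested. The median log2 ratio of the list was 0.02, beside −0.03 over all genes. Of its 8 genes at 20 CPM or more, 4 stood above and 4 below 0. Klra7 was the lowest at −3.97, with 0 CPM in SPP1fl/fl-Lyz2-icre and 73.5 CPM in SPP1fl/fl cells, and was not called. Of 14 interferon-stimulated genes at 20 CPM or more, 9 stood above and 5 below 0, with Rsad2 lowest at −2.89 and none called lower. Ifitm2 (antiviral), which is not on that list, stood at 568 and 211 CPM, a ratio of 2.69 (1.94 to 3.80). Sh2d1a (SAP, an adaptor of SLAM receptors) stood at 99.7 and 32.1 CPM.

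Of 3 cytokine genes tested, Ifng was called higher and none lower, with a median log2 ratio of −0.02 over the list. Tnf had the highest log2 ratio of that list, 1.42, and was not called. Ifng stood at 795 and 501 CPM, a ratio of 1.59 (1.27 to 2.0), yet the log2 ratio was 0.50 in female and −0.23 in male cells. Cells not assigned to a sex count in the pooled ratio only. At 2000 UMIs, 63.2% of SPP1fl/fl-Lyz2-icre and 40.0% of SPP1fl/fl granzyme-high cells had an Ifng UMI, beside 45.1% and 45.4% of granzyme-low cells. Prf1 stood at 916 and 974 CPM, a ratio of 0.94 (0.79 to 1.13), and was not called. In female cells the ratio was 1.13 (0.87 to 1.49) and in male cells 0.51 (0.34 to 0.77), or 0.64 (0.40 to 0.999) without the male SPP1fl/fl cell with the most granzyme UMIs. Of 9 granule genes tested outside the gate, 0 were called higher and 1, Serpinb9b, lower, with a median of 0.02. Serpinb9b stood at 103 and 193 CPM, a ratio of 0.53 (0.33 to 0.86), but without the cell of each library with the most granzyme UMIs the ratio was 0.79 (0.46 to 1.35). Spp1 stood at 614 and 818 CPM, a ratio of 0.75 (0.61 to 0.92), and was not called. In female cells its ratio was 0.86 (0.64 to 1.17) and in male cells 0.24 (0.12 to 0.43). None of 6 exhaustion genes tested was called, and of 12 glycolysis genes with enough UMIs none was called, although all 16 measured had log2 ratios above 0 with a median of 0.44.

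Genes of varied function were lower. Itga4, the alpha 4 integrin and a receptor of osteopontin, stood at 54.4 CPM in SPP1fl/fl-Lyz2-icre and 179 CPM in SPP1fl/fl cells, a ratio of 0.30 (0.16 to 0.54), with log2 ratios of −1.42 in female, −2.38 in male and −1.09 in granzyme-low cells. Of 4 osteopontin receptor genes tested it was the only one called. Bcl2l11 (Bim, which starts apoptosis) stood at 130 and 276 CPM, a ratio of 0.47 (0.31 to 0.71). Map3k1, a stress kinase, stood at 30.2 and 138 CPM, and H2-Q6, a non-classical MHC class I gene, at 224 and 478 CPM. Sqstm1 (p62, an autophagy receptor) stood at 81.6 and 179 CPM. Ash1l and Chd2, which act on chromatin, stood at 54.4 and 147 CPM and at 66.5 and 165 CPM. The log2 ratio of Ash1l was −1.36 over all cells but −0.57 in female and −0.46 in male cells. Its ratio had intervals of 0.20 to 2.27 in female and 0.23 to 2.09 in male cells. Cells not assigned to a sex count in the pooled value only. Ash1l and Chd2 were also lower in granzyme-low cells (log2 ratios of −0.36 and −0.55), NK cells (−0.16 and −0.57) and macrophages (−0.26 and −0.41). Beside these, the nuclear RNA Malat1 stood at 8161 and 13302 CPM in the granzyme-high cells, 8189 and 9979 CPM in granzyme-low cells and 8926 and 9965 CPM in macrophages, and the mitochondrial share was 0.837% and 1.87%. The part that RNA quality of the libraries has in the lower genes was not tested.

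**Figure D5:**
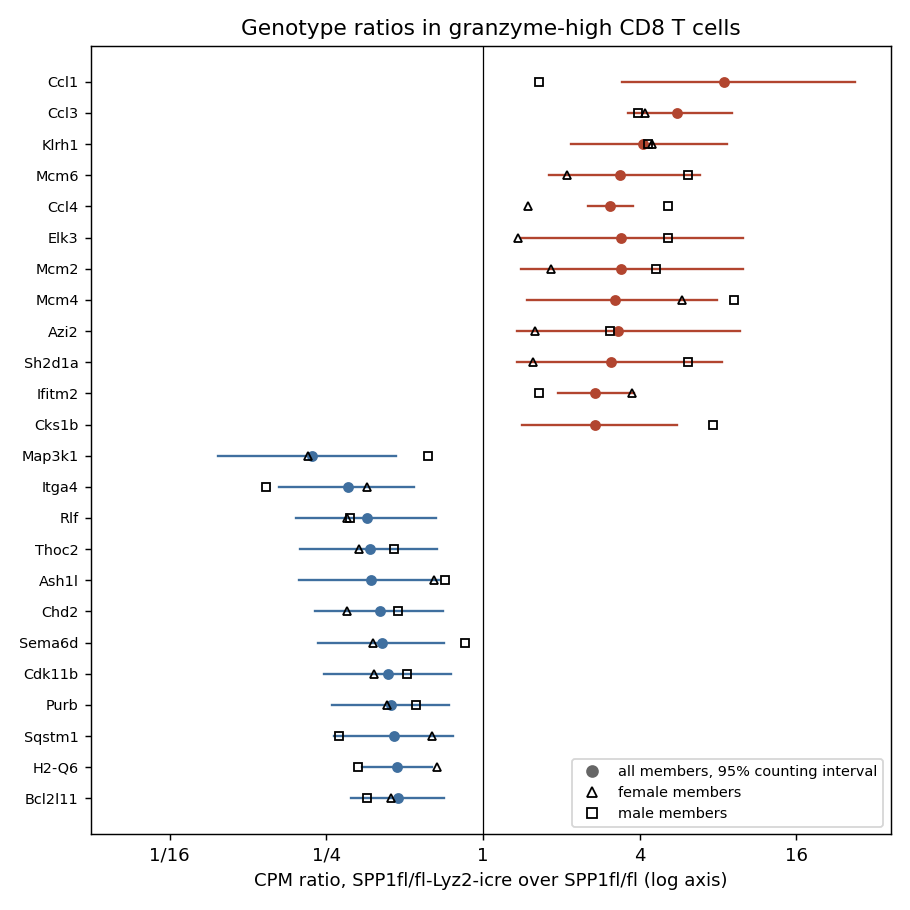
CPM ratio on a log axis, SPP1fl/fl-Lyz2-icre over SPP1fl/fl, for the 24 named genes in granzyme-high cells. Circles with 95% counting intervals are all cells, triangles female and squares male cells where both genotypes had UMIs. Ccl3 stands at a ratio of 5.58 and Itga4 at 0.30.

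The granzymes of the gate did not separate the genotypes when all cells were taken, but Gzmb, Gzmd, Gzme and Gzmf ran in opposite directions in female and male cells, a difference that was not tested. Gzmc was higher in both, with log2 ratios of 2.53 in female and 0.14 in male cells. Gzmf stood at 3817 CPM in female SPP1fl/fl-Lyz2-icre and 1490 CPM in female SPP1fl/fl cells, and at 3268 and 7438 CPM in male cells. Gzmd stood at 1472 and 58.7 CPM in female cells and at 376 and 2534 CPM in male cells. Without the male SPP1fl/fl cell that held 28.6% of the granzyme UMIs of its group, the male SPP1fl/fl levels were 6103 CPM for Gzmf and 1145 CPM for Gzmd, which left the direction of both as it was. Without it the male ratios were 0.92 (0.73 to 1.14) for Gzmb, against 0.58 with it, and 0.69 (0.46 to 1.02) for Gzme, against 0.37. The gate chose cells on these genes, and the values are a description of 17 female and 14 male SPP1fl/fl cells.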

How the data were processed

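Live CD45+ cells of MC38 tumours were measured in 2 libraries, 1 per genotype. The values deposited by the authors were UMI counts, unnormalized whole numbers for each gene in each called cell. They were counted with Cell Ranger 8.0.1 per the file headers, after bcl2fastq 5.0.1 and against mm10 per the submitters' processing notes. The annotation release is not given in the sources used here. The labels' protocols aimed at 8000 cells, each with 20000 reads or more. Without empty droplets, free RNA could not be removed, and no doublet caller was run; leaving out the 5% deepest cells of each library stands in for it.

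Kept were cells with 300 genes or more, 500 UMIs or more and a mitochondrial share of 15% or less: 13915 of 13944 barcodes in the SPP1fl/fl-Lyz2-icre library and 8724 of 9154 in the SPP1fl/fl library. Of 55357 genes listed, 28475 had a UMI. The gate given at the head of the report was applied, and UMIs were summed per class and library and divided by the class total (CPM). Log2 ratios had 5 CPM added to both sides, which understates the change of low genes. Ratios had exact conditional binomial intervals, shares Clopper-Pearson intervals and levels exact Poisson intervals. A called gene also stood at 0.5 or more of the CPM of all other kept cells of its library. This limit was meant to keep free RNA from being called and cannot exclude it. Shares of cells with a UMI that are given at 2000 UMIs were read on cells thinned to that depth. This left 68 SPP1fl/fl-Lyz2-icre and 35 SPP1fl/fl granzyme-high cells. Shares for Mki67 or Top2a together, for Ncr1 or Klrb1c and for Klrh1 were read at full depth, as were numbers of cells with a UMI. The NK gate asked for at least 2 UMIs of Ncr1 and Klrb1c and at most 1 each of the Cd3 and Cd8 sums. Female cells had a Xist UMI and no UMI of 4 Y-linked genes, and male cells the reverse. The marker names Tcrg-C1 and Tcrg-C2 were changed to Trgc1 and Trgc2, as the files have them.

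The genes named were, between genotypes, the 12 with the highest and the 12 with the lowest log2 ratio among called genes with the same sign in both sexes, between classes, 12 each way by the smaller difference of the libraries (both without Spp1, Lyz2, mitochondrial, ribosomal, haemoglobin, receptor-segment and sex-linked genes and unnamed models), a panel of 47 genes, and the extremes of 19 gene lists. Ikzf2, Ly6a, Hspd1, Hsp90aa1, Nrgn, Plac8, Sdf4 and Ly6c2, and the genes named against NK cells, were named after their values were seen where no part of this rule holds them. The granzyme-high cells, the lists and the rule were chosen with earlier results of these data known. The CRE letters were added to the motif search after the promoters had been read. Promoter sequences are RefSeq's (GRCm38.p6), with positions of genes from GENCODE vM21. Every count of genes was recomputed under other cell filters, granzyme and C1q thresholds, subsets of cells, scalings, added constants and call limits. The scripts were tested on simulated data and used Python 3.11.15, NumPy 2.4.6, SciPy 1.17.1, pandas 2.3.3 and matplotlib 3.10.9.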

Additional observations from a re-analysis of the deposited data

Results flagged for a closer look

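Several values of the granzyme-high cells had opposite directions in female and male cells. The differences between the sexes were not tested, and female and male cells came from different mice of unknown number, so sex and mouse cannot be told apart. The ratio of their share among kept cells, SPP1fl/fl-Lyz2-icre over SPP1fl/fl, was 1.65 in female cells (0.922 to 3.10) and 0.890 in male cells (0.413 to 1.95).

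Of the 5 granzymes of the gate, 4 were higher in female SPP1fl/fl-Lyz2-icre cells and lower in male ones, and Gzmc was higher in both. The log2 ratios of Gzmb were 0.40 in female and −0.79 in male cells, of Gzmd 4.54 and −2.74, of Gzme 2.15 and −1.43, and of Gzmf 1.35 and −1.19. Without the male SPP1fl/fl cell with the most granzyme UMIs, the male values were −0.13 for Gzmb, −1.59 for Gzmd, −0.54 for Gzme and −0.90 for Gzmf. Serpinb9b, the granzyme inhibitor relative, had log2 ratios of 2.83 in female and −2.91 in male cells, where female SPP1fl/fl cells had 1 UMI and the female ratio an interval of 1.56 to 403. The transcription factor gene Irf8 had 0.58 and −1.0, and Il7r, the interleukin-7 receptor of long-lived T cells, 1.42 and −2.48.

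Xcl1 had the opposite order, with log2 ratios of −0.83 in female and 5.01 in male cells. Male cells had 12 UMIs of Xcl1 in SPP1fl/fl-Lyz2-icre and 0 in SPP1fl/fl, so the male value depends on the 5 CPM added and is no bound.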

How the results depend on the processing

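The share of granzyme-high cells among CD8 T cells had a ratio, SPP1fl/fl-Lyz2-icre over SPP1fl/fl, of 1.05 to 2.41 over 12 alternatives, with an interval above 1 in 11 of them. The exception was male cells alone (1.05). Among kept cells the ratio was 0.890 to 1.65, with an interval above 1 in 0 of 12. Counts of genes moved most with the choice of cells and the call limits. Between genotypes, 127 higher and 96 lower genes became 74 and 43 at a threshold of 0.5%, 61 and 32 in female cells, 63 and 51 in male cells, 70 and 38 without cells with a Mki67 or Top2a UMI, 207 and 311 without the filter on low genes and 51 and 27 at 2-fold. At a threshold of 0.1%, 158 were lower. Between classes, 22 higher and 20 lower genes in both libraries became 49 and 34 without the filter and 8 and 9 at 2-fold. In female cells 14 were higher and in male cells 4. Lower genes numbered 12 without the 5% deepest cells and 10 without cycling cells. The subsets hold fewer cells, the filters fewer genes, and other causes were not tested. Direction changed for 17 gene values. Granzyme-high over granzyme-low, at 0.1%, they were Tcea1 in SPP1fl/fl (0.000417), Ccl1 in SPP1fl/fl-Lyz2-icre (1.54) and Ccl3 in SPP1fl/fl (0.14). Ccl1 in SPP1fl/fl-Lyz2-icre cells was 0.17 at 0.5% and 1.92 with the gate on thinned cells. In female SPP1fl/fl cells Serpinb9b was −0.52 and Ccl4 0.047. In male SPP1fl/fl-Lyz2-icre cells Serpinb6b was −0.18, Lag3 −0.20 and Spp1 −1.21, and in male SPP1fl/fl cells Ccl3 was 0.23. Without cycling cells Kif11 in SPP1fl/fl-Lyz2-icre cells was 0.14. Between genotypes, Irf8 was 0.58 and Serpinb9b 2.83 in female cells, and Ifng −0.23, Klrc1 −0.072 and Ikzf2 0.23 in male cells. Leaving out the cell with the most granzyme UMIs of each library, an alternative chosen after seeing the data like that of the top cell of each gene, gave 128 higher and 100 lower genes between genotypes and 20 and 20 between classes. Median-of-ratios scaling moved the medians by 0.03, −0.04 and −0.04. No paired analysis was possible because each genotype had 1 library. The 30 UMIs a call needs stand for 90.7 CPM in the 72 SPP1fl/fl-Lyz2-icre and 138 CPM in the 35 SPP1fl/fl cells, so a gene had to be higher to be called in the SPP1fl/fl direction.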

Other observations

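Some chaperone genes were higher in SPP1fl/fl-Lyz2-icre cells of both CD8 classes. Hspd1, a mitochondrial chaperonin, stood at 257 CPM in SPP1fl/fl-Lyz2-icre and 124 CPM in SPP1fl/fl cells, and Hsp90aa1, a cytosolic chaperone, at 541 and 317 CPM. Of 7 heat-shock genes tested, 2 were called higher and none lower, with a median log2 ratio of 0.35, beside 8.13% of all genes called higher. In granzyme-low cells 2 of 8 were called higher, with a median of 0.24, beside 54 of 3227 over all genes tested there. Digestion of tissue can induce such genes, and its part here was not tested. Ly6a (Sca-1), an interferon-induced surface protein, stood at 426 and 198 CPM. Of 4 interferon genes tested, 1 was called higher, with a median of 0.18, and in granzyme-low cells 2 of 5, with a median of 0.41.

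The 3′ libraries did not allow clones to be read. A UMI of any T cell receptor beta variable gene was found in 4 of 72 SPP1fl/fl-Lyz2-icre and 5 of 35 SPP1fl/fl granzyme-high cells.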
